A study of Sus scrofa with 24 samples.

Results

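Ovaries of Chenghua pigs entering puberty were compared with ovaries of newborn pigs of the same breed, to ask which genes differ between the ovary at the onset of puberty and the ovary of the first days of life. The comparison took 6 mRNA libraries, 3 of each stage, out of 24 samples in the series, of which 12 are mRNA libraries, and every gene of the deposited table was eligible. The Puberty group was ovary tissue of 3 sows at postnatal day 120. The Day 3 group was ovary tissue of 3 females at postnatal day 3. All of them were healthy Chenghua pigs, a local Chinese breed, kept under the same conditions, and none carried a transgene or received a treatment. Each library came from a different animal, and ovary pieces were frozen whole, so germ cells, follicle cells, stroma, vessels and blood all contribute to every value. The mRNA libraries at 1 year of age and at gestation day 105 were used only where they are named, and the 12 small RNA libraries were not analysed here.

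In mammals, germ cells of the female enter meiosis before birth, arrest in prophase and become enclosed by flat granulosa cells as primordial follicles. In the pig this enclosure continues into the time around birth, so nests of oocytes lie in the cortex beside somatic cords, the rete and a surface epithelium. A growing follicle adds layers of granulosa cells, its oocyte secretes a zona pellucida, and theca cells around it make androgens under luteinising hormone, which granulosa cells turn into oestrogens under follicle-stimulating hormone.

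Levels are given as TPM, a relative unit for transcripts that adjusts for gene length and library size and allows genes to be set beside each other. Tests used the deposited gene counts in edgeR's quasi-likelihood model, with fold changes on the log2 scale, Puberty over Day 3. The standard error (SE) beside each is approximate, since the edgeR test does not return one. It is the size of the log2 fold change divided by the square root of the test's F statistic. A gene is said to have risen or fallen when its p-value, adjusted by the Benjamini-Hochberg method over all genes tested, was under 0.05, and an amount by which it rose or fell is its log2 fold change with the SE. Of 18753 genes, 15381 had enough counts to be tested, and 7872 of these (51.2%) passed the threshold. Of the genes tested, 3733 (24.3%) rose and 4139 (26.9%) fell, and 8955 had an unadjusted p under 0.05. Large changes were mostly downward: 433 genes (2.82%) rose at least 4-fold, 1689 (11%) fell at least 4-fold, and past 16-fold there were 81 that rose and 357 that fell. In scaled counts, the 3 libraries of each stage did not overlap for 9537 genes (62%). The 10 largest rises and 10 largest falls named below were picked among such genes, so their lack of overlap is no separate result. Genes named for the lowest adjusted p of their list were also picked on these same libraries. The authors' deposited table lists 8532 genes with q under 0.05 for this pair of stages, 4073 of them with a positive and 4459 with a negative log2 fold change.

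The 6 libraries held 14615474 to 15787019 counts assigned to genes, with 16767 to 16934 genes detected at Puberty and 17565 to 17702 at Day 3. Puberty replicate 3 stood apart. Its root-mean-square log2 distance to the other Puberty libraries was 0.637 and 0.558, against 0.364 between those and 0.303 to 0.348 among the Day 3 libraries, while distances between stages ran from 0.979 to 1.122. Without Puberty replicate 3, 8652 genes passed the threshold, 4156 of them higher and 4496 lower at Puberty. The composition of the libraries also differed between the stages. Scaling by library totals alone moved the median log2 fold change of all tested genes to -0.22, against 0.03 with the scaling used here, and then 2074 genes rose and 5402 fell, so small differences are given relative to that choice. Replicates are separate animals, and the spread between them is the error behind every p-value.

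The plot of the share of each gene list that passed the threshold gives the outline of the comparison. Lists of germ cell, meiosis, cilia, rete and surface epithelium genes fell, and lists of steroid synthesis, theca, granulosa, vessel, smooth muscle and macrophage genes rose, in both cases at shares above those of all genes tested.

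**Figure D1:**
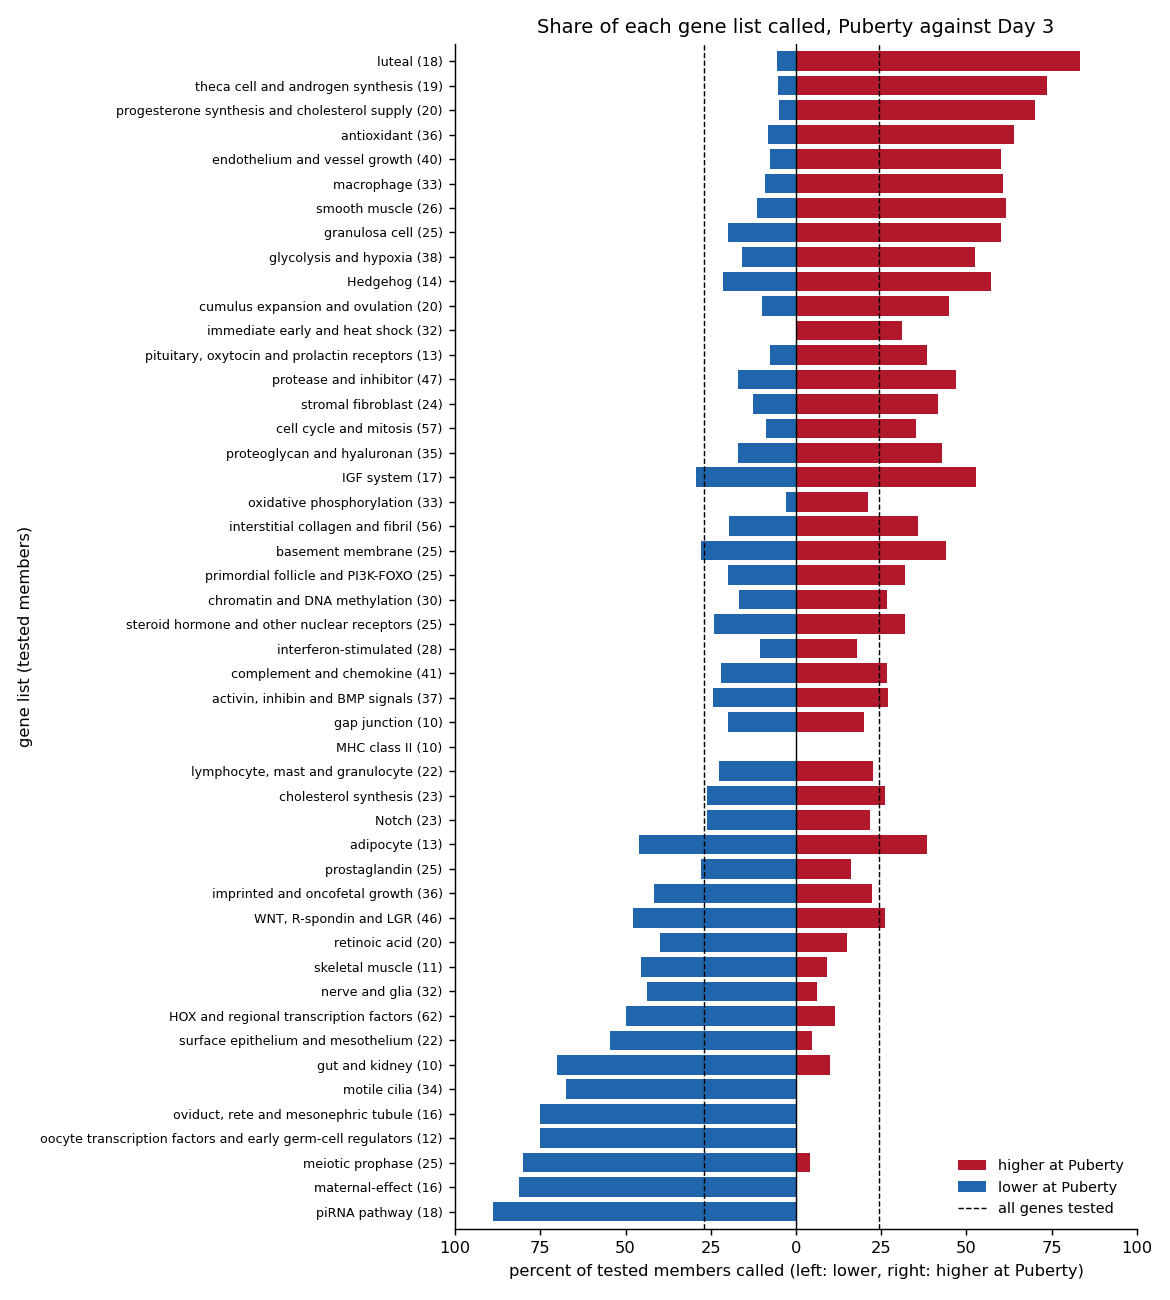
Percent of the tested members of each gene list that were called higher (bars to the right) or lower (bars to the left) at Puberty than at Day 3, for lists with at least 10 tested members, whose number is in parentheses. Dashed lines mark the shares among all genes tested, 24.3% higher and 26.9% lower; the luteal and theca lists lie far to the right of them and the piRNA and maternal-effect lists far to the left.

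Germ cell genes fell together. Of 12 tested regulators of early germ cells and oocytes, 9 fell and none rose (1 rose without Puberty replicate 1), with a median log2 fold change of -3.64 against 0.03 over all genes. DDX4, the germ cell RNA helicase also known as VASA (chromosome 16, 34879701 to 34983701, plus strand in Sscrofa11.1), had 5.07, 5.71 and 6.79 TPM in the 3 Puberty ovaries and 128, 138 and 90.9 TPM in the Day 3 ovaries (log2 fold change -4.03 ± 0.20 SE, adjusted p = 3.33e-05). NOBOX, a homeobox factor that oocytes need for follicle formation in the mouse, had 4.14, 5.28 and 4.5 TPM at Puberty and 87.8, 127 and 111 TPM at Day 3 (log2 fold change -4.22 ± 0.19 SE, adjusted p = 2.40e-05). Every Puberty library lay far below every Day 3 library for both genes, and the 3 animals of a stage differed little. LHX8, a second oocyte homeobox factor, stood at 0.99, 1.67 and 1.6 TPM against 33.2, 33.3 and 33.3 TPM (log2 fold change -4.17 ± 0.21 SE, adjusted p = 3.25e-05). FIGLA, the helix-loop-helix factor that activates zona pellucida genes, stood at 6.34, 4.53 and 7.11 TPM against 112, 155 and 99.3 TPM (log2 fold change -3.98 ± 0.27 SE, adjusted p = 7.74e-05). DAZL, an RNA-binding protein of early germ cells, was the lowest of them at Puberty, with 0.13, 0.15 and 0.06 TPM against 12.1, 6.77 and 3.92 TPM at Day 3 (log2 fold change -5.71 ± 0.58 SE, adjusted p = 0.000348), and Day 3 replicate 1 was the highest of its group. KIT, the receptor through which granulosa-derived KIT ligand acts on oocytes and which theca and mast cells also carry, did not pass the threshold, with 16.2, 10.6 and 15.8 TPM at Puberty and 14.1, 14.7 and 19.01 TPM at Day 3 (log2 fold change 0.16 ± 0.21 SE, adjusted p = 0.541). In whole tissue, fewer cells of a type and less RNA per cell cannot be told apart, and the number of oocytes per piece was not measured.

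Genes of the piRNA pathway, which silences transposable elements in germ cells, fell almost without exception. Of 18 tested members 16 fell and none rose, 14 of them at least 4-fold, with a median of -3.77; the exceptions were PIWIL4 (log2 fold change -0.57 ± 0.59 SE, adjusted p = 0.447) and TDRD7 (log2 fold change -0.28 ± 0.16 SE, adjusted p = 0.185). MAEL, a protein of the germ cell granule, had 5.44, 5.73 and 7.5 TPM at Puberty and 130.5, 167 and 127 TPM at Day 3 (log2 fold change -4.18 ± 0.18 SE, adjusted p = 2.20e-05). PLD6, the mitochondrial nuclease of piRNA processing, had 4.63, 5.24 and 5.9 TPM at Puberty and 101, 113 and 122 TPM at Day 3 (log2 fold change -4.06 ± 0.18 SE, adjusted p = 2.38e-05). TDRKH, which anchors that processing at the mitochondrion, had 2.78, 3.14 and 2.98 TPM at Puberty and 47.2, 66.1 and 55.4 TPM at Day 3 (log2 fold change -3.89 ± 0.17 SE, adjusted p = 2.20e-05). For these genes the stages were far apart, with no overlap. PIWIL1 and PIWIL2, Argonaute proteins that carry piRNAs, fell, with log2 fold changes of -4.12 ± 0.24 and -2.48 ± 0.39.

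Meiotic prophase genes showed the same picture. Of 25 tested members 20 fell and 1 rose, with a median of -3.22. SYCP3, an axial protein of the synaptonemal complex, had 3.8, 2.9 and 3.28 TPM at Puberty and 112, 118 and 80.7 TPM at Day 3 (log2 fold change -4.61 ± 0.23 SE, adjusted p = 3.14e-05). SMC1B, a cohesin subunit used in meiosis, had 1.4, 1.61 and 1.62 TPM at Puberty and 35.2, 40.1 and 39.6 TPM at Day 3 (log2 fold change -4.31 ± 0.14 SE, adjusted p = 1.69e-05). STAG3, another meiotic cohesin subunit, had 1.56, 2.13 and 2.05 TPM at Puberty and 41.8, 46.8 and 29.1 TPM at Day 3 (log2 fold change -4.02 ± 0.23 SE, adjusted p = 4.89e-05). The Puberty values were low and even across animals, and no Puberty library reached any Day 3 library. SYCP1, another protein of the synaptonemal complex, fell by 4.49 ± 0.62, with a log2 fold change of -5.29 without Puberty replicate 1. The gene that rose was YTHDC2, an RNA-binding protein needed for meiotic entry in the mouse and expressed outside germ cells too, with 10.3, 10.2 and 12.5 TPM against 11.6, 9.89 and 8.64 TPM (log2 fold change 0.45 ± 0.15 SE, adjusted p = 0.0398), overlapping TPM values, and adjusted p of 0.0613, 0.0559, 0.0629, 0.108 and 0.107 without Puberty replicates 1, 2 and 3 and Day 3 replicates 2 and 3. MEIOB, which binds DNA during meiotic recombination, did not pass, at 28.7, 29.7 and 24.3 TPM at Puberty and 29.2, 28.1 and 34.6 TPM at Day 3 (log2 fold change 0.17 ± 0.16 SE, adjusted p = 0.397).

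Genes of proteins and RNAs that the oocyte stores fell too. Of 16 tested maternal-effect genes, 13 fell and none rose, with a median of -2.79. ZAR1, an RNA-binding protein stored in oocytes, had 13.6, 17.9 and 14.6 TPM at Puberty and 293, 284 and 454 TPM at Day 3 (log2 fold change -4.14 ± 0.24 SE, adjusted p = 4.78e-05). KHDC3L, a member of the subcortical maternal complex, had 33.5, 37.0 and 31.1 TPM at Puberty and 611, 783 and 1596 TPM at Day 3 (log2 fold change -4.55 ± 0.40 SE, adjusted p = 0.000195). OOEP, a partner in that complex, had 2.11, 6.55 and 7.11 TPM at Puberty and 31.2, 65.3 and 68.1 TPM at Day 3 (log2 fold change -3.01 ± 0.52 SE, adjusted p = 0.00303). The stages did not overlap for any of these, although Day 3 replicate 3 carried far more KHDC3L than the other Day 3 libraries. The 3 maternal-effect genes that did not pass were NLRP5 (log2 fold change -1.26 ± 0.68 SE, adjusted p = 0.156), BTG4 (log2 fold change -0.54 ± 0.52 SE, adjusted p = 0.413) and NPM2 (log2 fold change 1.52 ± 0.60 SE, adjusted p = 0.0682), the last of which had 1, 3.69 and 4.14 TPM at Puberty and 1.82, 0.78 and 0.54 TPM at Day 3. NPM2, a histone chaperone of the egg, was at 0.0305 without Puberty replicate 1, and NLRP5, another member of the maternal complex, at 0.0282 without Day 3 replicate 1 (adjusted p).

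Among 6 tested zona pellucida and oocyte-secreted genes, 4 fell and 1 rose. ZP3, the zona protein with a central part in sperm binding in the mouse, had 52.2, 76.1 and 65.5 TPM at Puberty and 607, 781 and 1076 TPM at Day 3 (log2 fold change -3.34 ± 0.25 SE, adjusted p = 0.000113). ZP4, a zona protein abundant in the pig, had 29.0, 41.9 and 37.5 TPM at Puberty and 193, 168 and 579.8 TPM at Day 3 (log2 fold change -2.79 ± 0.49 SE, adjusted p = 0.00312), with Day 3 replicate 3 well above its group, and a log2 fold change of -1.99 without that library. GDF9, a growth factor that the oocyte sends to its granulosa cells, had 34.1, 40.8 and 41.8 TPM at Puberty and 169.6, 206 and 273 TPM at Day 3 (log2 fold change -2.14 ± 0.19 SE, adjusted p = 0.000198). For these 3 genes the stages did not overlap. BMP15, its close relative, had 15.3, 34.6 and 39.4 TPM at Puberty and 47.9, 118 and 88.9 TPM at Day 3 (log2 fold change -1.20 ± 0.40 SE, adjusted p = 0.0405), without overlap but not past the threshold once Puberty replicate 1 or 2 or Day 3 replicate 2 or 3 was left out (adjusted p of 0.0797, 0.0724, 0.138 and 0.0977). ZP2, a zona protein that egg proteases cut after fertilisation, went the other way, with 7.81, 16.3 and 23.0 TPM at Puberty and 1.92, 3.94 and 8.53 TPM at Day 3 (log2 fold change 2.02 ± 0.57 SE, adjusted p = 0.0212). Puberty replicate 1 lay below Day 3 replicate 3 for ZP2, so the groups overlapped, its log2 fold change was 2.74 without Day 3 replicate 3, and its adjusted p was 0.0518 and 0.076 without Puberty replicate 2 and Day 3 replicate 2. The plot of germ cell genes by library shows these values, with ZP2 and NPM2 reaching their highest values at Puberty.

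**Figure D2:**
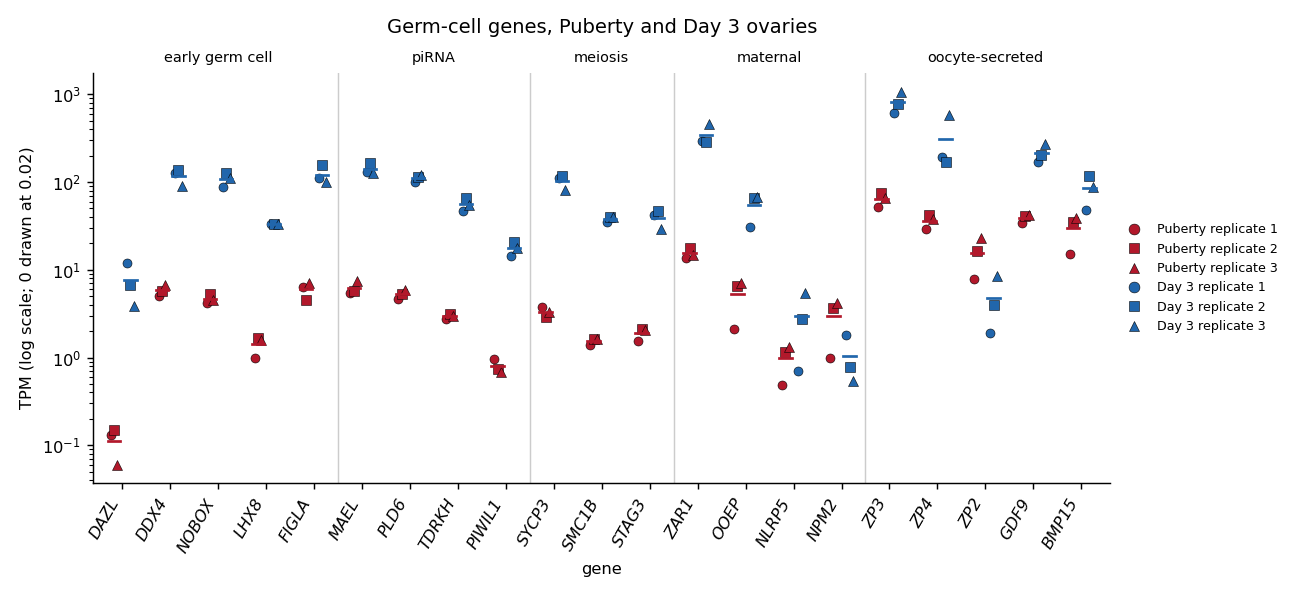
TPM (log axis) of 21 germ cell genes in each library, Puberty in red to the left and Day 3 in blue to the right of each gene, with lines at the stage means. Early germ cell, piRNA and meiosis genes lie far lower at Puberty, with no overlap, while ZP2 and NPM2 have their highest values at Puberty.

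Granulosa cell genes rose in part. Of 25 tested members 15 rose and 5 fell, with a median of 2.46; 14 rose at least 4-fold. FOXL2, the transcription factor that defines granulosa cells, did not pass, with 120.3, 66.1 and 53.7 TPM at Puberty and 64.5, 82.9 and 85.9 TPM at Day 3 (log2 fold change 0.40 ± 0.32 SE, adjusted p = 0.332). AMH, anti-Mullerian hormone of small growing follicles, had 44.6, 84.4 and 53.8 TPM at Puberty and 30.1, 34.4 and 61.6 TPM at Day 3 (log2 fold change 0.86 ± 0.33 SE, adjusted p = 0.061); without Puberty replicate 3 or Day 3 replicate 3 its adjusted p was 0.044 and 0.0172. Both genes overlapped between stages. FSHR, the receptor for follicle-stimulating hormone, had 47.0, 80.6 and 70.5 TPM at Puberty and 5.86, 7.77 and 8.61 TPM at Day 3 (log2 fold change 3.48 ± 0.24 SE, adjusted p = 8.37e-05), with every Puberty animal above every Day 3 animal; its adjusted p ran over 2.18e-41 to 0.0581 in the 16 alternatives and missed the threshold in a single fit of all 12 mRNA libraries. NR5A2, a nuclear receptor needed for ovulation in the mouse (chromosome 10, 22727865 to 22866905, plus strand), had 141, 21.1 and 93.05 TPM at Puberty and 1.04, 0.67 and 1.06 TPM at Day 3 (log2 fold change 6.90 ± 0.81 SE, adjusted p = 0.000618), or 6.22 without Puberty replicate 1. The granulosa genes that fell included KITLG, the KIT ligand, at 2.19, 2.56 and 3.15 TPM against 12.6, 9.75 and 14.0 TPM (log2 fold change -1.90 ± 0.19 SE, adjusted p = 0.000332), NR0B1, a repressor of steroid synthesis also known as DAX1, at 1.83, 2.68 and 3.97 TPM against 35.0, 30.0 and 42.8 TPM (log2 fold change -3.35 ± 0.29 SE, adjusted p = 0.000201), and ESR2, an oestrogen receptor of granulosa cells, at 1.02, 0.87 and 0.24 TPM against 3.84, 6.47 and 6.01 TPM (log2 fold change -2.56 ± 0.51 SE, adjusted p = 0.00517). These 3 showed no overlap between stages. TNNI3, a troponin gene on the granulosa list, and WT1, a factor of the gonadal and surface lineage, were the others that fell, with log2 fold changes of -0.86 ± 0.17 and -1.32 ± 0.33.

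The subunits of inhibins and activins, dimers by which granulosa cells regulate the pituitary and each other, rose in every Puberty animal relative to Day 3. INHA, the inhibin alpha subunit, had 5935, 1113 and 1478 TPM at Puberty and 251, 294 and 269 TPM at Day 3 (log2 fold change 3.76 ± 0.67 SE, adjusted p = 0.00344). INHBB, the beta B subunit (chromosome 15, 30999994 to 31004405, minus strand), had 537, 128 and 84.5 TPM at Puberty and 2.42, 8 and 4.67 TPM at Day 3 (log2 fold change 6.00 ± 0.91 SE, adjusted p = 0.00171). INHBA, the beta A subunit, had 940.3, 85.8 and 137 TPM at Puberty and 38.1, 48.8 and 50.1 TPM at Day 3 (log2 fold change 3.73 ± 0.93 SE, adjusted p = 0.0134). Puberty replicate 1 was the highest library for all 3, well above the next one, yet the stages did not overlap. Without Puberty replicate 1 the log2 fold changes were 2.57 for INHA, 4.72 for INHBB and 1.83 for INHBA, and INHBA did not pass without Day 3 replicate 1 or 2 (adjusted p = 0.0533 and 0.0502). FST, follistatin, which binds and blocks activin, had 645, 316 and 226 TPM at Puberty and 17.8, 18.0 and 19.5 TPM at Day 3 (log2 fold change 4.79 ± 0.45 SE, adjusted p = 0.000257). Over the whole list of 37 tested activin, inhibin and BMP genes, 10 rose and 9 fell, near the shares of all genes, and 6 rose without Day 3 replicate 1 or 2. TGFBR3, the inhibin co-receptor betaglycan, rose by 1.91 ± 0.15, and CHRDL1, a BMP antagonist, by 1.77 ± 0.21. BMP7, a ligand of epithelia and theca, fell by 4.47 ± 0.72, with a log2 fold change of -5.69 without Puberty replicate 1, and BMP6, made by oocytes and granulosa cells, fell by 1.23 ± 0.27, while BMP2 and BMP4 did not pass, at 0.19 ± 0.23 and -0.19 ± 0.15.

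Aromatase makes oestrogen from androgen, and the pig carries several near-identical aromatase genes, so reads may be divided among the copies and CYP19A3 is reported with that uncertainty. CYP19A3 (chromosome 1, 120476890 to 120556103, plus strand) had 868, 38.9 and 6.82 TPM at Puberty and 0.25, 0.43 and 0 TPM at Day 3 (log2 fold change 10.97 ± 2.36 SE, adjusted p = 0.00733). The 3 Puberty animals spanned a very wide range, all of them above Day 3, where 5, 8 and 0 counts were assigned to the gene. Its log2 fold change was 7.17 without Puberty replicate 1, 11.57 without Puberty replicate 3 and 11.74 without Day 3 replicate 2, so the size of the rise is poorly fixed. Its adjusted p ran over 5.09e-07 to 0.0968 in the 16 alternatives, with voom the one that missed the threshold.

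Hedgehog signalling carries a message from granulosa cells to the theca: granulosa cells secrete the ligand, and theca precursors respond through the receptor PTCH1 and the transcription factor GLI1. IHH, Indian hedgehog, was close to silent at Day 3. IHH (chromosome 15, 121083750 to 121090548, minus strand) had 115, 76.5 and 83.7 TPM at Puberty and 0, 0.11 and 0.38 TPM at Day 3, where 0, 2 and 8 counts were assigned to it (log2 fold change 9.38 ± 0.55 SE, adjusted p = 5.15e-05). The Puberty animals lay close together, and the fold change varied with the Day 3 library left out, at 8.78 without Day 3 replicate 1 and 11.02 without Day 3 replicate 3. PTCH1 had 38.6, 67.3 and 26.6 TPM at Puberty and 8.21, 11.3 and 6.8 TPM at Day 3 (log2 fold change 2.66 ± 0.37 SE, adjusted p = 0.00118). GLI1 had 23.2, 27.2 and 17.1 TPM at Puberty and 10.9, 12.8 and 10.7 TPM at Day 3 (log2 fold change 1.33 ± 0.20 SE, adjusted p = 0.00161). Both targets were higher in every Puberty library, with replicate 3 the lowest of the 3. DHH, desert hedgehog, did not pass, at 3.93, 5.07 and 4.47 TPM against 4.72, 4.65 and 6.31 TPM (log2 fold change 0.11 ± 0.25 SE, adjusted p = 0.724). Over 14 tested members of the pathway 8 rose and 3 fell, and 5 rose without Day 3 replicate 1. The inhibitor HHIP, a further target, was among those that rose, by 1.34 ± 0.40, with one overlapping pair of libraries in TPM and adjusted p of 0.0598, 0.0894 and 0.0846 without Puberty replicate 2, Day 3 replicate 1 and Day 3 replicate 2. The members that fell were the co-receptor BOC, at 2.96, 2.7 and 2.58 TPM against 16.6, 14.5 and 15.1 TPM (log2 fold change -2.20 ± 0.14 SE, adjusted p = 5.82e-05), the repressor GLI3 (log2 fold change -0.79 ± 0.18 SE, adjusted p = 0.00993), and the inhibitor SUFU (log2 fold change -0.53 ± 0.17 SE, adjusted p = 0.0345), the last with adjusted p of 0.0996, 0.115, 0.103 and 0.114 without Puberty replicates 1 and 2 and Day 3 replicates 1 and 3.

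**Figure D3:**
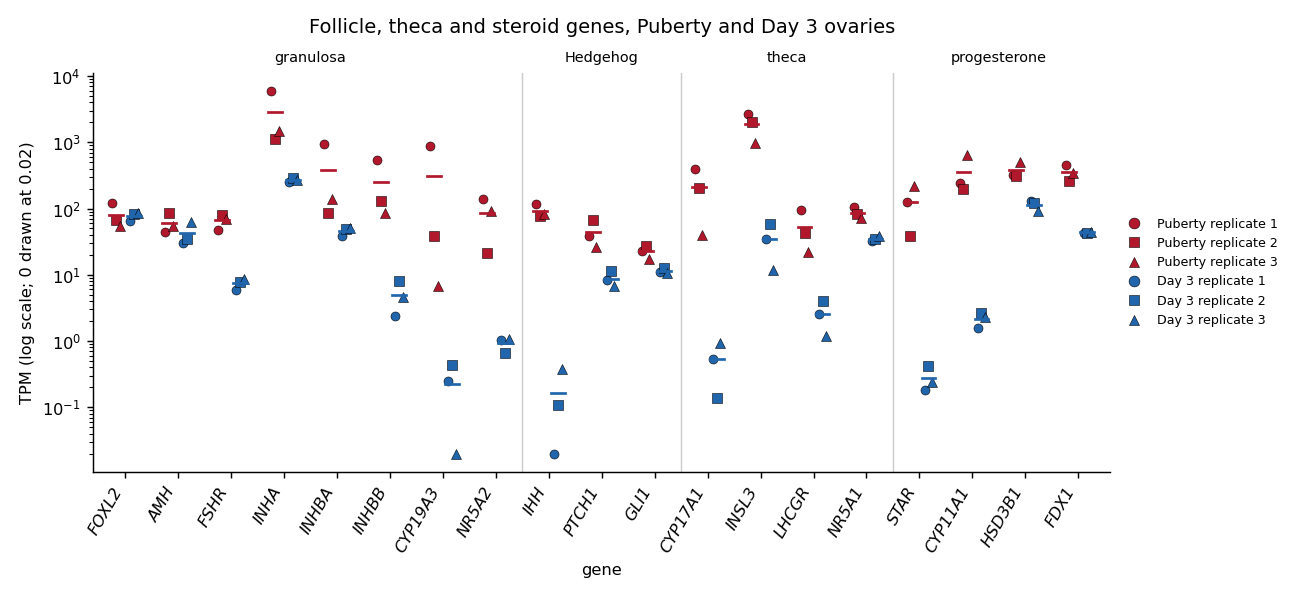
TPM (log axis, with 0 drawn at 0.02) of granulosa, Hedgehog, theca and progesterone genes in each library, Puberty in red to the left and Day 3 in blue to the right of each gene, with lines at the stage means. FOXL2 and AMH overlap between the stages, whereas IHH, CYP17A1, STAR and CYP11A1 are far apart; Puberty replicate 1 is highest for INHA, INHBA, INHBB and CYP19A3.

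Theca and steroid synthesis genes rose. Of 19 tested theca genes 14 rose and 1 fell, with a median of 1.64. CYP17A1, the enzyme that makes androgens (chromosome 14, 113805616 to 113820445, minus strand), had 397, 201 and 40.5 TPM at Puberty and 0.54, 0.14 and 0.95 TPM at Day 3, where 8, 2 and 13 counts were assigned to it (log2 fold change 8.96 ± 1.11 SE, adjusted p = 0.000754). INSL3, a relaxin-like peptide hormone of theca cells, had 2643, 1997 and 989 TPM at Puberty and 34.5, 59.3 and 11.8 TPM at Day 3 (log2 fold change 6.11 ± 0.69 SE, adjusted p = 0.000511). LHCGR, the receptor for luteinising hormone, had 93.8, 42.8 and 22.3 TPM at Puberty and 2.52, 4.07 and 1.19 TPM at Day 3 (log2 fold change 4.80 ± 0.69 SE, adjusted p = 0.00136). Replicate 1 was the highest and replicate 3 the lowest of the Puberty animals for these 3 genes, with no overlap with Day 3. Leaving out Puberty replicate 1 gave 8.10 for CYP17A1 and 4.06 for LHCGR, leaving out Day 3 replicate 3 gave 9.59 for CYP17A1, and leaving out Day 3 replicate 2 gave 6.71 for INSL3. RXFP2, the receptor of INSL3, was the theca list's only gene that fell, with 0.09, 0.3 and 0.5 TPM at Puberty and 5.75, 5.64 and 5.3 TPM at Day 3 (log2 fold change -3.91 ± 0.47 SE, adjusted p = 0.000687). NR5A1, the nuclear receptor that drives steroid synthesis genes, had 106, 81.5 and 73.2 TPM at Puberty and 32.5, 34.9 and 38.1 TPM at Day 3 (log2 fold change 1.64 ± 0.18 SE, adjusted p = 0.000473).

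The steps from cholesterol to progesterone rose as well. Among 20 tested genes of progesterone synthesis and cholesterol supply 14 rose and 1 fell (2 without Puberty replicate 3), with a median of 1.11. STAR, which carries cholesterol into the mitochondrion (chromosome 15, 48377597 to 48385398, plus strand), had 125, 38.1 and 217 TPM at Puberty and 0.18, 0.42 and 0.24 TPM at Day 3, where 4, 9 and 5 counts were assigned to it (log2 fold change 9.13 ± 0.83 SE, adjusted p = 0.00023). CYP11A1, which cuts the cholesterol side chain, had 239, 194 and 635 TPM at Puberty and 1.57, 2.61 and 2.3 TPM at Day 3 (log2 fold change 7.65 ± 0.57 SE, adjusted p = 0.000113), or 7.01 without Puberty replicate 3. HSD3B1, which makes progesterone from pregnenolone, had 326, 313 and 509.6 TPM at Puberty and 131, 122 and 91.2 TPM at Day 3 (log2 fold change 2.05 ± 0.22 SE, adjusted p = 0.000415). Here Puberty replicate 3 was the highest library, in contrast to the theca genes above, and HSD3B1 was already well expressed at Day 3. FDX1, the electron carrier of mitochondrial steroid enzymes, rose by 3.38 ± 0.24, SCARB1, the receptor for high-density lipoprotein, by 1.78 ± 0.24, and NPC1, which exports cholesterol from lysosomes, by 1.80 ± 0.13. LIPE, hormone-sensitive lipase, was the member that fell (log2 fold change -0.56 ± 0.16 SE, adjusted p = 0.0253), and it did not pass without Puberty replicate 2 or any 1 of the Day 3 replicates (adjusted p of 0.078, 0.0778, 0.0525 and 0.0755). In a single fit of all 12 mRNA libraries HSD3B1, SCARB1 and NPC1 did not pass, and their adjusted p ran over 1.50e-17 to 0.32, 4.82e-11 to 0.388 and 5.29e-30 to 0.181 in the 16 alternatives. Of 23 tested genes of cholesterol synthesis itself 6 rose and 6 fell (26.1% each), near the 24.3% and 26.9% of all genes tested. Without Puberty replicate 3, 10 rose, but 3, 1 and 3 rose without Day 3 replicates 1, 2 and 3, and 3 fell without Day 3 replicate 2. HMGCS1, an early enzyme of the path, rose by 0.81 ± 0.12 and NSDHL, a later sterol enzyme, fell by 1.52 ± 0.20.

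Of 18 tested genes on a luteal list, 15 rose and 1 fell, but 6 of the members that rose are also on the theca or progesterone lists. Relaxin is the peptide by which luteal cells of the pregnant sow are known. RLN2, the relaxin gene, had 8, 74.9 and 2.71 TPM at Puberty and 1.81, 0.54 and 0 TPM at Day 3 (log2 fold change 5.66 ± 1.51 SE, adjusted p = 0.0174). Puberty replicate 2 stood far above the other Puberty libraries, the log2 fold change was 3.28 without it and 7.09 without Day 3 replicate 1, and RLN2 did not pass without Day 3 replicate 2 or 3 (adjusted p = 0.0657 and 0.0592). PGR, the progesterone receptor that granulosa cells induce at ovulation, fell, with 2.19, 1.91 and 1.56 TPM at Puberty and 5.54, 5.59 and 4.91 TPM at Day 3 (log2 fold change -1.17 ± 0.22 SE, adjusted p = 0.00423). MSMB, a secreted protein on the luteal list, had 64.3, 117 and 106 TPM at Puberty and 9.45, 6.57 and 6.03 TPM at Day 3 (log2 fold change 4.06 ± 0.32 SE, adjusted p = 0.000133), without overlap. PRLR, the prolactin receptor, rose by 2.95 ± 0.64, or 3.55 without Day 3 replicate 1, while remaining at 0.91 to 3.4 TPM at Puberty. In the single fit of all 12 mRNA libraries RLN2, PGR, MSMB and PRLR did not pass, and their adjusted p ran over 0.00261 to 0.27, 2.02e-05 to 0.37, 1.60e-26 to 0.0653 and 0.000256 to 0.112 in the 16 alternatives.

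Genes of the ovulatory response set Puberty replicate 3 apart from the other Puberty animals. Of 20 tested genes of cumulus expansion and ovulation 9 rose and 2 fell; without Puberty replicate 3 the numbers were 9 and 4, and without Day 3 replicate 2 they were 5 and 2. PTGS2, the inducible cyclooxygenase of ovulation, had 0.16, 0.25 and 35.1 TPM at Puberty and 1.3, 1.09 and 0.6 TPM at Day 3 (log2 fold change 3.83 ± 1.77 SE, adjusted p = 0.107). Puberty replicates 1 and 2 lay below all Day 3 libraries and replicate 3 far above them, and without replicate 3 PTGS2 had a log2 fold change of -1.89 (adjusted p = 0.0212), against 4.41 (adjusted p = 0.0459) without replicate 1. TNFAIP6, a hyaluronan-binding protein of the cumulus matrix, rose evenly, with 11.7, 17.6 and 12.6 TPM at Puberty and 1.14, 0.55 and 2.16 TPM at Day 3 (log2 fold change 3.77 ± 0.47 SE, adjusted p = 0.000775), or 4.36 without Day 3 replicate 3. EGFR, the receptor for the ovulatory epidermal-growth-factor-like ligands, rose by 0.86 ± 0.17, PTGER2, a prostaglandin receptor, fell by 0.97 ± 0.19, and EREG, a ligand of EGFR, did not pass (log2 fold change -0.93 ± 0.40 SE, adjusted p = 0.088).

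Immediate early genes, which cells switch on within a short time of a stimulus, were also highest in that library. Of 32 tested immediate early and heat shock genes 31 were highest in replicate 3 among the Puberty libraries, where 6012 of all 15381 tested genes (39.1%) were. 10 of these genes rose and none fell; without Puberty replicate 3 there were 8 that rose and 5 that fell, and without Day 3 replicates 2 and 3 there were 4 and 5 that rose. FOS, a component of the AP-1 factor, had 22.1, 21.7 and 297 TPM at Puberty and 133, 45.1 and 12.1 TPM at Day 3 (log2 fold change 1.13 ± 1.16 SE, adjusted p = 0.44). FOSL2, a related AP-1 gene, rose by 2.40 ± 0.53, or 1.50 without Puberty replicate 3. ATF3, a stress-induced factor, rose by 2.71 ± 0.58, with 2.11 without Puberty replicate 3 and 3.31 without Day 3 replicate 1. JUN, the AP-1 partner of FOS, did not pass (log2 fold change -0.45 ± 0.34 SE, adjusted p = 0.298), and without Puberty replicate 3 it was lower at Puberty (-0.91, adjusted p = 0.00771). The part of this library's high immediate early genes in its other values was not tested.

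Cell cycle genes had the opposite pattern. Of 57 tested members 20 rose and 5 fell; 36 rose without Puberty replicate 3, 13 without Puberty replicate 2 and 11 without Day 3 replicate 2, and 3 fell without Day 3 replicate 3. Puberty replicate 3 was the highest Puberty library for 2 of the 57. MKI67, a protein of dividing cells, had 39.8, 43.9 and 10.7 TPM at Puberty and 7.88, 2.97 and 7.94 TPM at Day 3 (log2 fold change 2.65 ± 0.60 SE, adjusted p = 0.009). TOP2A, the topoisomerase of dividing cells, had 89.1, 100.03 and 25.3 TPM at Puberty and 17.9, 6.47 and 17.4 TPM at Day 3 (log2 fold change 2.70 ± 0.60 SE, adjusted p = 0.00814). Both were high in replicates 1 and 2 and came close to Day 3 levels in replicate 3. CCND3, a G1 cyclin, rose by 0.97 ± 0.17, and CDKN2B, an inhibitor of G1 kinases, by 2.75 ± 0.54. AURKA, a mitotic kinase stored in oocytes, had 45.2, 52.0 and 36.2 TPM at Puberty and 224, 279 and 453 TPM at Day 3 (log2 fold change -2.48 ± 0.30 SE, adjusted p = 0.000708). NCAPG, a condensin subunit, had 25.7, 30.1 and 10.1 TPM at Puberty and 190.1, 234 and 173 TPM at Day 3 (log2 fold change -2.84 ± 0.40 SE, adjusted p = 0.00133). These mitotic genes fell without overlap between stages while MKI67 rose.

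**Figure D4:**
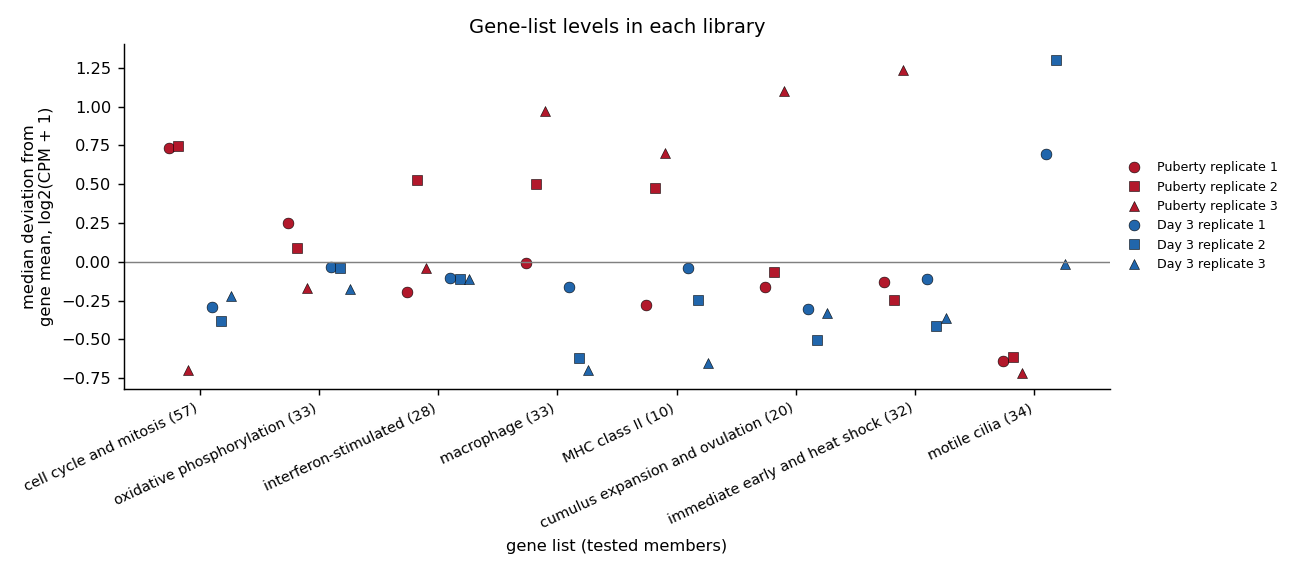
Median over the tested members of 8 gene lists of the deviation of log2(CPM + 1), counts scaled to a common library size by the TMM method, from each gene's mean over the 6 libraries; Puberty in red to the left, Day 3 in blue. Puberty replicate 3 is at 1.24 for immediate early genes and -0.70 for cell cycle genes, against 0.74 and 0.74 for cell cycle genes in Puberty replicates 1 and 2; the cilia list differs among the Day 3 animals.

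WNT signalling genes fell more often than they rose. Of 46 tested WNT, R-spondin and LGR genes 22 fell and 12 rose, 14 and 3 of them at least 4-fold. Among the ligands, WNT4, which supports ovarian fate in the mouse, had 1.15, 2.42 and 5.57 TPM at Puberty and 17.9, 21.9 and 23.5 TPM at Day 3 (log2 fold change -2.50 ± 0.48 SE, adjusted p = 0.00463), or -3.20 without Puberty replicate 3. RSPO1, the R-spondin of ovarian differentiation, had 1.14, 0.4 and 2.12 TPM at Puberty and 17.0, 15.5 and 16.6 TPM at Day 3 (log2 fold change -3.43 ± 0.48 SE, adjusted p = 0.00129), or -4.02 without Puberty replicate 3. The stages did not overlap for either gene. WNT2B, a ligand of the surface region in the mouse, fell by 2.22 ± 0.16. The R-spondin receptors LGR5 and LGR6 fell as well. LGR5, which marks the surface epithelium of the newborn mouse ovary (chromosome 5, 35463257 to 35595234, plus strand), had 0.04, 0.05 and 0.03 TPM at Puberty and 3.73, 2.71 and 1.24 TPM at Day 3 (log2 fold change -5.57 ± 0.62 SE, adjusted p = 0.0005). LGR6, its relative, had 0.38, 0.52 and 0.24 TPM at Puberty and 11.5, 11.3 and 8.38 TPM at Day 3 (log2 fold change -4.40 ± 0.31 SE, adjusted p = 9.48e-05). Both receptors were low in every Puberty animal. Of the nuclear genes of the pathway, LEF1 fell by 2.19 ± 0.13 and AXIN2 fell by 1.27 ± 0.23. In the other direction, SFRP1, a secreted antagonist, had 125, 126 and 66.8 TPM at Puberty and 22.3, 11.6 and 8.86 TPM at Day 3 (log2 fold change 3.23 ± 0.42 SE, adjusted p = 0.000965). WNT11, a ligand of the non-canonical branch, rose by 2.81 ± 0.35, and FZD1, a receptor, by 1.22 ± 0.13. WNT5A, a non-canonical ligand of the stroma, did not pass (log2 fold change -0.78 ± 0.33 SE, adjusted p = 0.0857) but had an adjusted p of 0.00119 without Puberty replicate 3.

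Retinoic acid triggers meiotic entry and is cleared by CYP26 enzymes. Of 20 tested retinoid genes 8 fell and 3 rose. CYP26A1, the degrading enzyme (chromosome 14, 104561394 to 104567099, plus strand), had 0.09, 0.13 and 0.07 TPM at Puberty and 11.8, 8.95 and 7.51 TPM at Day 3 (log2 fold change -5.89 ± 0.40 SE, adjusted p = 8.02e-05). CRABP1, a retinoic acid carrier protein, had 1.44, 2.58 and 1.2 TPM at Puberty and 120.0, 77.5 and 61.9 TPM at Day 3 (log2 fold change -5.22 ± 0.42 SE, adjusted p = 0.000152). RXRG, a retinoid X receptor, had 1.83, 2.6 and 2.66 TPM at Puberty and 59.9, 69.6 and 71.1 TPM at Day 3 (log2 fold change -4.42 ± 0.17 SE, adjusted p = 2.14e-05). All 3 were low in every Puberty animal and lay far above that in every Day 3 animal. RXRA and RARA, the broadly expressed receptors, rose by 1.06 ± 0.17 and 0.75 ± 0.16, and ALDH1A2, an enzyme that makes retinoic acid, did not pass (log2 fold change -0.13 ± 0.22 SE, adjusted p = 0.626). ALDH1A1, a related enzyme, fell (log2 fold change -2.24 ± 0.59 SE, adjusted p = 0.0161), but not past the threshold without Puberty replicate 2 or Day 3 replicate 1 (adjusted p = 0.0589 and 0.0543).

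Of the insulin-like growth factors 1 rose and the other fell. IGF1, the growth factor of follicles and stroma, had 25.3, 20.6 and 25.6 TPM at Puberty and 5.98, 2.97 and 2.99 TPM at Day 3 (log2 fold change 2.38 ± 0.30 SE, adjusted p = 0.000817). IGF2, the fetal growth factor, had 14.8, 26.1 and 41.1 TPM at Puberty and 184, 149 and 249 TPM at Day 3 (log2 fold change -2.43 ± 0.37 SE, adjusted p = 0.00184). IGF2R, which removes IGF2, rose by 0.80 ± 0.12. The stages did not overlap for IGF1 and IGF2. Among the binding proteins IGFBP2 rose by 2.38 ± 0.21 and IGFBP6 fell by 1.74 ± 0.27. PAPPA2, a protease that releases IGFs, had 1.05, 1.13 and 1.18 TPM at Puberty and 18.3, 21.1 and 21.9 TPM at Day 3 (log2 fold change -3.87 ± 0.13 SE, adjusted p = 1.69e-05). STC1, stanniocalcin, an inhibitor of such proteases, had 102, 182 and 95.9 TPM at Puberty and 4.89, 1.65 and 2.22 TPM at Day 3 (log2 fold change 5.76 ± 0.46 SE, adjusted p = 0.000139), or 6.36 without Day 3 replicate 1. PAPPA2 and STC1 thus went in opposite directions, both without overlap. The fetal mRNA-binding proteins IGF2BP2 and IGF2BP3 fell, with log2 fold changes of -4.25 ± 0.21 and -3.41 ± 0.22. Over 36 tested imprinted and oncofetal genes 15 fell and 8 rose, with 5 and 4 rising without Day 3 replicates 1 and 2. Exceptions among them were MEST, an imprinted hydrolase gene, which rose by 1.58 ± 0.35, and MYCN, a growth regulator, which rose by 1.85 ± 0.33, while DLK1, an imprinted Notch-like ligand, did not pass (log2 fold change 0.62 ± 0.90 SE, adjusted p = 0.582).

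**Figure D5:**
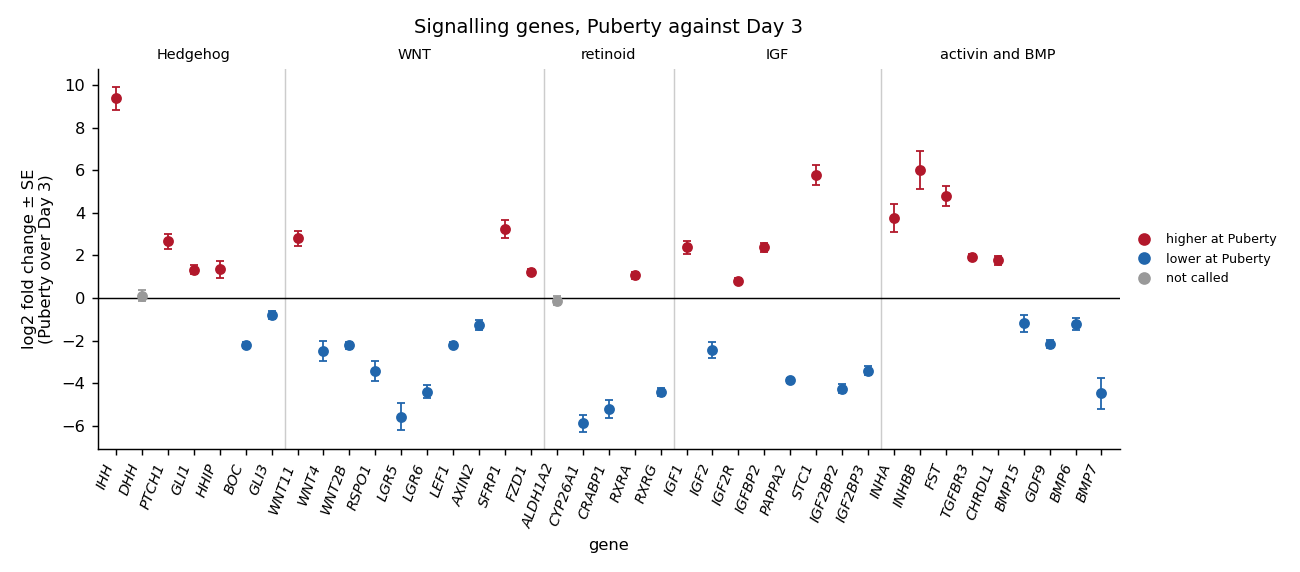
Log2 fold change (Puberty over Day 3) from the edgeR fit of 3 against 3 libraries, for genes of 5 signalling groups. Bars are the approximate standard error derived from the test's F statistic. Red points rose, blue points fell and grey points did not pass; IHH, STC1 and INHBB lie highest and CYP26A1, LGR5 and CRABP1 lowest.

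Epithelial genes were prominent on the Day 3 side. Of 22 tested surface epithelium and mesothelium genes 12 fell and 1 rose (2 without Puberty replicate 2), with a median of -1.58. CDH1, epithelial cadherin, had 3.78, 2.03 and 2.81 TPM at Puberty and 49.5, 44.9 and 38.2 TPM at Day 3 (log2 fold change -3.61 ± 0.26 SE, adjusted p = 9.50e-05). CLDN4, a tight junction protein, had 1.55, 1.08 and 1.01 TPM at Puberty and 27.5, 36.7 and 18.8 TPM at Day 3 (log2 fold change -4.42 ± 0.33 SE, adjusted p = 0.000113). BNC1, a basonuclin of epithelia and germ cells, had 1.37, 0.77 and 1.45 TPM at Puberty and 19.3, 19.5 and 13.8 TPM at Day 3 (log2 fold change -3.55 ± 0.28 SE, adjusted p = 0.000139). None of these overlapped between the stages. KRT19, a keratin, and LHX9, a gonadal homeobox factor, fell, with log2 fold changes of -2.70 ± 0.39 and -2.37 ± 0.28. GATA6, the member that rose, by 1.63 ± 0.30, is also a factor of granulosa and theca cells. UPK3B, the mesothelial marker, did not pass (log2 fold change -1.37 ± 0.95 SE, adjusted p = 0.26), with an adjusted p of 0.0188 without Puberty replicate 1. CDH1 and BNC1 are also expressed by oocytes, and the share of epithelium and of oocytes in their fall cannot be told apart.

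Motile cilia, as on the rete ovarii and the oviduct, gave a list in which 23 of 34 tested genes fell and none rose, with a median of -2.26. FOXJ1, the master regulator of motile cilia (chromosome 12, 5306121 to 5312117, plus strand), had 0.16, 0.08 and 0 TPM at Puberty and 9.97, 26.9 and 2.2 TPM at Day 3 (log2 fold change -6.91 ± 1.20 SE, adjusted p = 0.003), or -7.83 without Puberty replicate 1 and -5.82 without Day 3 replicate 2. DNAH11, an outer arm dynein, had 0.41, 0.63 and 0.47 TPM at Puberty and 10.2, 14.9 and 11.0 TPM at Day 3 (log2 fold change -4.31 ± 0.22 SE, adjusted p = 3.43e-05). The Day 3 animals were uneven for cilia: replicate 2 was the highest Day 3 library for 28 of the 34 genes (82.4%), against 31.1% of all genes tested. The list summed to 83.2, 91.5 and 110.0 TPM at Puberty and 268, 418 and 176 TPM at Day 3. SPAG6 and TEKT1, structural proteins of cilia and flagella, fell, with log2 fold changes of -4.07 ± 0.35 and -3.11 ± 0.38. Of 16 tested oviduct, rete and mesonephric tubule genes 12 fell and none rose. PAX2, a factor of the mesonephric ducts, had 0, 0 and 0.02 TPM at Puberty, from 0, 0 and 1 counts, and 0.9, 0.7 and 0.38 TPM at Day 3 (log2 fold change -5.70 ± 0.84 SE, adjusted p = 0.00152), or -7.67 without Puberty replicate 3. RET, the receptor of ductal outgrowth, and CLDN10, a claudin of tubules, fell, with log2 fold changes of -3.65 ± 0.22 and -3.50 ± 0.26. OVGP1, the oviduct glycoprotein, did not pass (log2 fold change 0.35 ± 0.35 SE, adjusted p = 0.423). The part of attached tubule or duct in these falls was not tested.

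Regional transcription factors fell with them. Of 62 tested HOX and regional factors 31 fell and 7 rose. HOXA7 had 3.14, 2.94 and 3.2 TPM at Puberty and 43.4, 60.7 and 59.8 TPM at Day 3 (log2 fold change -3.79 ± 0.23 SE, adjusted p = 5.23e-05). HOXD11 had 0.12, 0.18 and 0.13 TPM at Puberty and 3.72, 3.88 and 4.31 TPM at Day 3 (log2 fold change -4.41 ± 0.32 SE, adjusted p = 9.65e-05). HOXA10, a factor of the Mullerian tract, had 0.05, 0.05 and 0.05 TPM at Puberty and 0.79, 2.1 and 0.28 TPM at Day 3 (log2 fold change -4.21 ± 0.88 SE, adjusted p = 0.00645), or -3.25 without Day 3 replicate 2. These HOX genes, which pattern the body axis, fell without overlap between stages, whereas TCF21, a factor of gonadal stroma, did not pass (log2 fold change -0.29 ± 0.19 SE, adjusted p = 0.231). The deposited annotation of transcription factor families covers a wider set. Of 969 tested factors 198 (20.4%) rose and 285 (29.4%) fell. Among 105 tested homeobox genes 67 (63.8%) fell, 53 of them at least 4-fold, and 8 rose. In no other family of at least 20 tested members did the share that fell exceed 33.3%, the share of the fork-head family, where 10 of 30 fell and 8 rose. The TF_bZIP family, which holds the AP-1 genes, had the highest share that rose, 14 of 39 (35.9%). The MYB family came close, with 9 of 26 (34.6%). Family counts with 1 library left out were not made.

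Smooth muscle and vessel genes rose. Of 26 tested smooth muscle genes 16 rose and 3 fell, with a median of 1.32. ACTA2, smooth muscle actin, which theca externa and vessel walls express, had 1744, 1419 and 1075 TPM at Puberty and 281, 185 and 170.4 TPM at Day 3 (log2 fold change 3.08 ± 0.28 SE, adjusted p = 0.00023). MYH11, smooth muscle myosin, had 71.8, 95.6 and 95.1 TPM at Puberty and 25.1, 32.0 and 25.1 TPM at Day 3 (log2 fold change 2.00 ± 0.16 SE, adjusted p = 0.000133). Both were higher in every Puberty library. Of 40 tested endothelial and vessel growth genes 24 rose and 3 fell. ANGPT2, an angiopoietin of remodelling vessels, had 62.2, 56.3 and 40.4 TPM at Puberty and 8.01, 7.65 and 6.02 TPM at Day 3 (log2 fold change 3.20 ± 0.24 SE, adjusted p = 0.00012). VWF, the clotting factor carrier of endothelium, rose by 1.79 ± 0.18, PECAM1, a junction protein, by 1.13 ± 0.15, NRP1, a co-receptor of VEGFA, by 2.02 ± 0.12, and VEGFA itself by 1.24 ± 0.22. EMCN, a sialomucin of capillaries and veins, fell by 1.30 ± 0.14, and SOX17, a factor of arteries and of duct epithelium, fell by 1.10 ± 0.24, while KDR, the main VEGFA receptor, did not pass (log2 fold change 0.20 ± 0.13 SE, adjusted p = 0.24).

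The main collagens of the stroma did not pass the threshold, and chains of the basement membrane moved in both directions. COL1A1 and COL3A1, the main fibrillar collagens, were at 0.42 ± 0.33 and -0.06 ± 0.23, DCN, decorin, at -0.04 ± 0.14, and SPARC, a matrix glycoprotein, at -0.01 ± 0.18 (adjusted p = 0.32, 0.849, 0.831 and 0.969). Of 56 tested interstitial collagen and fibril genes 20 rose and 11 fell, with 13 rising without Day 3 replicate 2. FBN3, a fibrillin of fetal ovary, had 0.31, 0.2 and 0.15 TPM at Puberty and 10.8, 6.25 and 11.2 TPM at Day 3 (log2 fold change -5.06 ± 0.37 SE, adjusted p = 0.000101). COL9A1, a collagen known from cartilage, fell by 5.25 ± 0.53, and LOX, the enzyme that crosslinks collagen, rose by 1.78 ± 0.25. In type IV collagen, the network of basement membranes, COL4A1 had 676, 490.5 and 455 TPM at Puberty and 127, 109 and 143 TPM at Day 3 (log2 fold change 2.44 ± 0.22 SE, adjusted p = 0.000205), and COL4A2 rose by 1.73 ± 0.22. COL4A5 and COL4A6, chains of the alternative network, fell, with log2 fold changes of -1.34 ± 0.19 and -2.19 ± 0.37. In laminins, LAMA1 and LAMC1 rose by 1.67 ± 0.26 and 1.00 ± 0.12 and LAMA3, the epithelial alpha chain, fell by 2.47 ± 0.43. Over 25 tested basement membrane genes 11 rose and 7 fell; 4 fell without Puberty replicate 2 or Day 3 replicate 1 or 2 and 3 without Day 3 replicate 3.

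Among proteoglycans and proteases more genes rose than fell. VCAN, versican, the proteoglycan of follicle walls and expanding cumulus, had 195, 106 and 66.9 TPM at Puberty and 8.57, 7.09 and 10.9 TPM at Day 3 (log2 fold change 4.15 ± 0.45 SE, adjusted p = 0.000429). GPC1, a glypican, rose by 2.94 ± 0.17, while GPC3, the fetal glypican, had 18.3, 14.9 and 13.1 TPM at Puberty and 126, 108 and 118 TPM at Day 3 (log2 fold change -2.59 ± 0.17 SE, adjusted p = 7.77e-05). NCAN and BCAN, proteoglycans best known from brain, fell, with log2 fold changes of -5.80 ± 0.70 and -3.64 ± 0.49, with -6.63 for NCAN without Puberty replicate 2. Of 47 tested proteases and inhibitors 22 rose, 13 of them at least 4-fold, and 8 fell. A2M, a broad protease inhibitor, had 655, 396 and 458 TPM at Puberty and 29.0, 15.8 and 28.9 TPM at Day 3 (log2 fold change 4.69 ± 0.34 SE, adjusted p = 0.0001). HTRA1, a secreted serine protease, had 647, 641 and 591 TPM at Puberty and 167, 126 and 136 TPM at Day 3 (log2 fold change 2.46 ± 0.15 SE, adjusted p = 5.82e-05). BMP1, the procollagen protease, rose by 2.35 ± 0.25, MMP13, a collagenase, fell by 3.32 ± 0.42, and MMP2, a gelatinase, did not pass (log2 fold change 0.23 ± 0.33 SE, adjusted p = 0.578). TIMP1, an inhibitor of matrix proteases, had 373, 336 and 2933 TPM at Puberty and 243, 178 and 179 TPM at Day 3 (log2 fold change 2.91 ± 0.82 SE, adjusted p = 0.0218). Replicate 3 carried most of the TIMP1 difference, which was 1.23 without it, and its adjusted p was 0.0602, 0.0756 and 0.0733 without Day 3 replicates 1, 2 and 3.

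Macrophage genes rose, and most were highest in Puberty replicate 3. Of 33 tested members 20 rose and 3 fell, with 13 rising without Puberty replicate 2 and 12 without Day 3 replicate 2 or 3; replicate 3 was the highest Puberty library for 26 of the 33. CD163, a scavenger receptor of tissue macrophages, had 31.4, 47.4 and 82 TPM at Puberty and 11.7, 9.29 and 7.49 TPM at Day 3 (log2 fold change 2.80 ± 0.34 SE, adjusted p = 0.000701). CD68, a lysosomal protein of macrophages, had 22.5, 52.6 and 93.8 TPM at Puberty and 17.5, 10.3 and 7.18 TPM at Day 3 (log2 fold change 2.58 ± 0.53 SE, adjusted p = 0.00605). CSF1R, the receptor for the macrophage growth factor, did not pass, at 22.8, 32.8 and 42.0 TPM against 51.5, 44.2 and 57.2 TPM (log2 fold change -0.34 ± 0.20 SE, adjusted p = 0.194), and was at 0.0341 (adjusted p) without Puberty replicate 3. CD163 and CD68 were above Day 3 in every Puberty library, and CSF1R was below Day 3 in every Puberty library in TPM but not in scaled counts. FCGR1A and ADGRE1, surface receptors of monocytes and macrophages, fell, with log2 fold changes of -2.86 ± 0.35 and -2.27 ± 0.42, and ITGAM, an integrin of myeloid cells, fell by 1.20 ± 0.36 with adjusted p of 0.0709, 0.0733, 0.0607 and 0.0719 without Puberty replicate 2 and Day 3 replicates 1, 2 and 3. No MHC class II gene passed (10 tested, median 0.77; 7 rose without Puberty replicate 1 and 2 without Day 3 replicate 1). CCL22 and CCL26, chemokines, fell, with log2 fold changes of -4.76 ± 0.30 and -3.50 ± 0.20, and C4A, a complement protein, rose by 1.89 ± 0.28. Among lymphocyte genes CD8A and CD3G of T cells rose by 2.27 ± 0.45 and 2.13 ± 0.49, and MZB1 and PAX5 of the B lineage fell, with log2 fold changes of -3.37 ± 0.36 and -3.52 ± 0.32.

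Genes of nerve and glia fell, 14 of 32 tested against 2 that rose. STMN2, a microtubule regulator of growing neurites (chromosome 4, 56952968 to 57006744, minus strand), had 0.2, 0.45 and 0.49 TPM at Puberty and 42.4, 18.1 and 22.7 TPM at Day 3 (log2 fold change -5.85 ± 0.48 SE, adjusted p = 0.000151). CNTN1, an axonal adhesion protein, and ERBB3, the neuregulin receptor of Schwann cells, fell, with log2 fold changes of -2.17 ± 0.25 and -2.19 ± 0.26. NCAM1, an adhesion protein of neurons that follicle cells also carry, rose, with 41.5, 60.1 and 61.4 TPM at Puberty and 15.6, 11.0 and 14.9 TPM at Day 3 (log2 fold change 2.296 ± 0.19 SE, adjusted p = 0.000165), and MBP, myelin basic protein, was the other that rose, by 2.02 ± 0.41. NTRK2, a neurotrophin receptor that oocytes also use, had 0.25, 0.33 and 0.45 TPM at Puberty and 8.02, 6.73 and 6.88 TPM at Day 3 (log2 fold change -4.16 ± 0.23 SE, adjusted p = 4.52e-05).

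Antioxidant and detoxifying genes formed another group that rose, 23 of 36 tested against 3 that fell. TXN, thioredoxin, had 2245, 2323 and 1717 TPM at Puberty and 318, 335 and 306 TPM at Day 3 (log2 fold change 3.10 ± 0.17 SE, adjusted p = 4.37e-05). SOD3, the extracellular superoxide dismutase, had 32.3, 42.2 and 55.5 TPM at Puberty and 3.57, 3.68 and 3.44 TPM at Day 3 (log2 fold change 4.10 ± 0.28 SE, adjusted p = 8.02e-05). SELENOP, the selenium carrier, had 2260.4, 2666 and 3239 TPM at Puberty and 445, 534 and 602 TPM at Day 3 (log2 fold change 2.69 ± 0.17 SE, adjusted p = 6.82e-05). These were higher in every Puberty library. GPX3, the secreted glutathione peroxidase, rose by 4.64 ± 0.51 (4.05 without Puberty replicate 3), GSTA1, a glutathione transferase of steroid-producing cells, by 4.44 ± 0.46, and HMOX1, haem oxygenase, by 2.10 ± 0.19. The members that fell were MGST2 (log2 fold change -3.77 ± 0.41 SE, adjusted p = 0.000433), GSTM3 (log2 fold change -2.94 ± 0.28 SE, adjusted p = 0.000274) and SOD2 (log2 fold change -0.69 ± 0.15 SE, adjusted p = 0.00838). In glucose metabolism 20 of 38 tested genes rose and 6 fell. ALDOA and PFKP, glycolytic enzymes, rose by 1.53 ± 0.15 and 1.72 ± 0.18. TKTL1, a transketolase-like gene known from the germ line, had 6.84, 7.49 and 7.2 TPM at Puberty and 564, 423 and 201 TPM at Day 3 (log2 fold change -5.46 ± 0.40 SE, adjusted p = 0.000111), and LDHC, the lactate dehydrogenase of germ cells, fell by 3.44 ± 0.27. Of 33 tested genes of oxidative phosphorylation 7 rose (21.2%) and 1 fell (3.03%). Both shares were below the 24.3% and 26.9% of all genes tested. Without Puberty replicate 3, 12 of them rose, and without Puberty replicate 1, 5 fell.

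Gap junction and prostaglandin genes moved in both directions, at shares near or below the 24.3% and 26.9% of all tested genes that rose and fell. Of 10 tested gap junction genes 2 rose and 2 fell (20% each). GJA1, the connexin that couples granulosa cells, had 705, 810.1 and 492 TPM at Puberty and 110.0, 119 and 116 TPM at Day 3 (log2 fold change 2.88 ± 0.21 SE, adjusted p = 0.000116). GJD2, a connexin known from neurons, had 2.01, 1.47 and 1.76 TPM at Puberty and 24.2, 32.9 and 72.7 TPM at Day 3 (log2 fold change -4.32 ± 0.46 SE, adjusted p = 0.000423), or -3.71 without Day 3 replicate 3. Neither overlapped between stages. GJA4, the connexin between oocyte and granulosa cells, did not pass (log2 fold change 0.48 ± 0.26 SE, adjusted p = 0.161); without Puberty replicate 2 its adjusted p was 0.0205. Of 25 tested prostaglandin genes 4 rose (16%) and 7 fell (28%). CBR1, a carbonyl reductase that acts on prostaglandins, had 2.86, 1.94 and 1.37 TPM at Puberty and 0, 0 and 0.11 TPM at Day 3 (log2 fold change 5.70 ± 0.83 SE, adjusted p = 0.00146), or 7.50 without Day 3 replicate 3. HPGD, which inactivates prostaglandins, had 0.72, 0.81 and 2.21 TPM at Puberty and 16.2, 25.4 and 15.4 TPM at Day 3 (log2 fold change -3.62 ± 0.42 SE, adjusted p = 0.000564). SLCO2A1, the prostaglandin transporter, rose by 2.52 ± 0.20, and PTGFR, the receptor through which prostaglandins end luteal life, by 3.14 ± 0.68, or 1.99 without Puberty replicate 3.

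Several signalling, receptor, chromatin and interferon lists held genes of both directions, as did all genes tested, of which 24.3% rose and 26.9% fell. The shares that rose and fell were 21.7% and 26.1% for Notch and 32% and 20% for the PI3K to FOXO list. They were 32% and 24% for nuclear receptors, 26.7% and 16.7% for chromatin and 17.9% and 10.7% for interferon-stimulated genes. Of 23 tested Notch genes 5 rose and 6 fell, among them JAG1, a ligand, at -1.33 ± 0.12, and HEYL, a target, at 1.21 ± 0.14; 3 rose without Puberty replicate 1 or Day 3 replicate 2. Of 25 tested genes of primordial follicle activation and the PI3K to FOXO pathway 8 rose and 5 fell; FOXO1, which granulosa cells express, rose by 1.94 ± 0.21, and FOXO3, which holds mouse oocytes dormant, did not pass (log2 fold change 0.06 ± 0.20 SE, adjusted p = 0.815). Among 25 tested nuclear receptors 8 rose and 6 fell; ESR1, the oestrogen receptor of theca and stroma, did not pass (log2 fold change 0.17 ± 0.29 SE, adjusted p = 0.652). Of 30 tested chromatin genes 8 rose and 5 fell, with 3, 4, 3 and 5 rising without Puberty replicate 2 and Day 3 replicates 1, 2 and 3. MORC1, which silences transposons in the male mouse germ line, was the chromatin gene with the lowest adjusted p among those that fell, at 0.05, 0.05 and 0.08 TPM against 1.12, 1.29 and 1.2 TPM (log2 fold change -3.91 ± 0.39 SE, adjusted p = 0.000326). Of 28 tested interferon-stimulated genes 5 rose and 3 fell. Puberty replicate 2 was the highest Puberty library for 24 of them (85.7%), against 27.2% of all genes tested. Without that library 3 rose and 5 fell, and 3 rose without Day 3 replicate 2 or 3.

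The ovarian label was checked against FOXL2, DDX4, GDF9 and NR5A1, given above, which were detected in all 6 libraries, and markers of other tissues were looked up beside them. Striated muscle actin ACTA1 was at 0 to 0.08 TPM at Puberty and 0 to 0.14 TPM at Day 3, MYH1 at 0 to 0.02 TPM at both stages, and UMOD of kidney at 0 to 0.05 TPM at Puberty and 0.05 to 0.44 TPM at Day 3. MYBPC1 and NEB, genes known from striated muscle, also fell, MYBPC1 with 0.87, 1.18 and 0.97 TPM at Puberty and 31.1, 29.7 and 31.2 TPM at Day 3 (log2 fold change -4.57 ± 0.16 SE, adjusted p = 2.14e-05). Blood differed between the stages: HBB, beta globin, had 241, 182 and 251 TPM at Puberty and 874, 1131 and 1013 TPM at Day 3 (log2 fold change -1.78 ± 0.17 SE, adjusted p = 0.000268), and ALAS2, the haem enzyme of red cells, fell by 2.03 ± 0.32. The part of blood or attached tissue in other results was not tested.

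Several of the largest changes concern genes outside these pathways. SFTPC, a surfactant protein known from lung (chromosome 14, 6440309 to 6443104, plus strand), had 501, 54.5 and 2.26 TPM at Puberty and 0.35, 0.18 and 0.19 TPM at Day 3, where 2, 1 and 1 counts were assigned to it (log2 fold change 9.85 ± 2.31 SE, adjusted p = 0.0102). Its 3 Puberty animals spanned a very wide range, all above Day 3, and its log2 fold change was 7.09 without Puberty replicate 1 and 10.46 without Puberty replicate 3; its adjusted p ran over 2.20e-07 to 0.0838 in the 16 alternatives and missed the threshold with voom. VGF, a neuroendocrine peptide precursor, had 8.78, 21.6 and 29.3 TPM at Puberty and 0.11, 0.12 and 0.04 TPM at Day 3 (log2 fold change 7.99 ± 0.61 SE, adjusted p = 0.000126). MOBP, a myelin protein gene, had 9.07, 5.5 and 1.54 TPM at Puberty and 0, 0.03 and 0.05 TPM at Day 3 (log2 fold change 7.82 ± 0.98 SE, adjusted p = 0.000817), or 7.23 without Puberty replicate 1 and 9.05 without Day 3 replicate 3. CA10, a carbonic anhydrase-like protein of neurons, had 34.6, 14.3 and 6.83 TPM at Puberty and 0.27, 0.1 and 0.03 TPM at Day 3 (log2 fold change 7.28 ± 0.89 SE, adjusted p = 0.00073), or 6.41 without Puberty replicate 1 and 8.20 without Day 3 replicate 1. All 4 were near 0 in every Day 3 ovary and present in every Puberty ovary. On the Day 3 side, FMR1NB, a gene known from germ cells and tumours, had 0.8, 0.82 and 0.51 TPM at Puberty and 80.5, 62.8 and 23.8 TPM at Day 3 (log2 fold change -5.88 ± 0.57 SE, adjusted p = 0.000297). CRB2, an epithelial polarity protein, had 0.53, 0.12 and 0.18 TPM at Puberty and 16.8, 16.5 and 7.4 TPM at Day 3 (log2 fold change -5.25 ± 0.59 SE, adjusted p = 0.00051), or -6.17 without Puberty replicate 1. ST6GAL2, a sialyltransferase, and PLEKHG4 fell, with log2 fold changes of -5.22 ± 0.36 and -5.13 ± 0.43. BRDT, a bromodomain protein of germ cells, had 0.29, 0.28 and 0.27 TPM at Puberty and 12.5, 12.8 and 7.09 TPM at Day 3 (log2 fold change -4.94 ± 0.34 SE, adjusted p = 8.14e-05). All the genes of this paragraph were picked among those without overlap between stages, so that trait is no result of its own.

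Genes near silence at one stage were then counted. Under 0.5 TPM in all 3 Day 3 libraries and over 5 TPM in all 3 Puberty libraries were 7 genes: VGF, CA10, CYP19A3, STAR, IHH and 2 without an informative symbol. In the reverse sense, over 5 TPM in every Day 3 library and under 0.5 TPM in every Puberty library, there were 40. Of these 40, 33 were also under 0.5 TPM in all 6 libraries of the later stages, at 1 year of age and at gestation day 105, and none was over 5 TPM in all of them. Of the 7, none was under 0.5 TPM in all 6 later libraries and 2 were over 5 TPM in all of them.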

How the data were processed

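Poly(A) RNA of 6 ovaries was sequenced on DNA nanoballs, per the labels' protocols. Per the submitters' processing notes, the authors used Bowtie2 2.3.4.3, RSEM 1.3.1 and DESeq2 1.4.5 with the pig genome Sscrofa11.1. The deposited gene table holds expected counts, as RSEM estimates them, which were rounded here, and TPM values, which the authors scaled by gene length and depth. The authors' own log2 fold changes and q-values (adjusted p-values) were read only for 1 sentence. The table has 24 further per-sample columns of values, which were not used here.

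Genes with at least about 10 counts in 3 libraries (filterByExpr) were fitted with edgeR 4.0.16 in R 4.3.3 (TMM scaling, quasi-likelihood test, 3 against 3, no covariate), with Benjamini-Hochberg adjustment over all 15381 tested genes. Limma 3.58.1 and DESeq2 1.42.0 gave 2 of the 16 alternatives, which also varied scaling, filter, libraries and a fold threshold. The fit was tested on simulated data (15199 genes). Square-root common dispersion was 0.245. Coordinates and identifiers match RefSeq for 16832 of 18753 genes. The 50 gene lists (1413 genes, 1335 in the table) and the comparison itself were chosen with earlier results of these data known. Named genes are the 10 largest rises and 10 largest falls among called genes whose libraries do not overlap and whose log2 CPM averages 3 or more, each list's defining genes, and the 3 lowest adjusted p of each list in each direction; members that complete a count were added, and a few genes are not reported here. Levels in TPM are not scaled by the TMM factors. Intervals between Puberty and Day 3 rest on 3 animals each, with 14615474 to 15787019 counts per library.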

Additional observations from a re-analysis of the deposited data

How the results depend on the processing

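Results were recomputed under 16 alternatives. Of 208 named genes that passed the threshold, none changed sign under any of them, and 196 passed in each of the 6 fits that left out 1 library. In the comparison as a whole, leaving out 1 library gave 5904 to 8652 genes called, 2488 to 4156 higher, 3416 to 4496 lower, 377 to 473 at least 4-fold higher and 1656 to 1962 at least 4-fold lower; the lowest counts of genes called, higher and lower came without Day 3 replicate 2. A single fit of all 12 mRNA libraries called 4509 genes, 1807 higher and 2702 lower. A test against a fold threshold of 2 called 2359, 529 higher and 1830 lower, and library totals without further scaling called 2074 higher. A minimum count of 50 in place of 10 left 1119 genes called at least 4-fold lower, out of fewer genes tested. DESeq2 called 8604 genes and voom 8920. Of the named genes, 46 that passed did not pass in the fit of all 12 libraries, 38 did not pass against a fold of 2, and 62 missed the threshold under at least 1 alternative. Those lost in the fit of all 12 libraries, with adjusted p of 0.0507 to 0.566, were ADGRE1, ALAS2, ALDH1A1, BMP15, CBR1, CD3G, CD8A, CDKN2B, CHRDL1, CNTN1, COL4A5, DGAT2, EGFR, FSHR, GLI1, GLI3, GPC3, HBB, HHIP, HMGCS1, HSD3B1, IGF2R, IGFBP6, INHBA, ITGAM, KITLG, LIPE, MEST, MSMB, NPC1, PGR, PLIN1, PPARG, PRLR, PTGER2, PTGFR, RLN2, SCARB1, SFRP1, SOD2, SUFU, TIMP1, VEGFA, YTHDC2, ZP2 and ZP4. With voom CYP19A3 (0.0968) and SFTPC (0.0838) did not pass, with DESeq2 PLIN1 (0.0822), with library totals HHIP (0.0556) and YTHDC2 (0.336), and YTHDC2 also with upper-quartile scaling (0.0958) and a minimum count of 50 (0.0574). The cause of the other differences was not tested.

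With the replicate number as a block, 7087 genes were called, 3240 higher and 3847 lower. Deviations from the stage means had correlations of 0.062, -0.002 and -0.035 between libraries with the same number. Between libraries with different numbers they ran from -0.072 to 0.056. The numbers were not treated as a pairing, but this check cannot exclude a small shared effect. With the block HHIP, LIPE, PLIN1, TIMP1 and YTHDC2 did not pass (adjusted p of 0.0573, 0.0565, 0.0626, 0.0591 and 0.072).

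Sign changes were limited to 17 of the 33 named genes that did not pass. With library totals only, the log2 fold change was -0.0658 for BMP2, -0.14 for DHH, -0.0814 for ESR1, -0.19 for FOXO3, -0.0555 for KDR, -0.0924 for KIT, -0.0759 for MEIOB and -0.0124 for MMP2. FOXO3 was at -0.0300 with upper-quartile scaling. With voom it was 0.0534 for COL3A1, -0.18 for DLK1, -0.33 for FOS, -0.15 for FOXO3, -0.0335 for MMP2, -0.96 for PTGS2 and 0.0945 for SPARC. With the block, SPARC was at 0.0124, and with no count filter SPARC was at 0.0110. As 1 library at a time was left out, the log2 fold change ran over -0.29 to 0.0460 for ALDH1A2, -0.88 to 0.0661 for BTG4, -0.28 to 0.14 for COL3A1, -0.14 to 0.0581 for DCN, -0.82 to 1.49 for DLK1, -0.0396 to 0.43 for ESR1, -1.15 to 2.28 for FOS, -0.0550 to 0.66 for FOXL2, -0.17 to 0.19 for FOXO3, -0.23 to 0.53 for MMP2, -1.89 to 4.41 for PTGS2 and -0.18 to 0.0939 for SPARC.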

Other observations

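Lipid-storing and stromal genes moved in both directions. Of 13 tested adipocyte genes 5 rose (38.5%) and 6 fell (46.2%), against 24.3% and 26.9% of all genes tested. LPL, the lipase that takes fatty acids from lipoproteins, had 35.0, 51.6 and 33.2 TPM at Puberty and 6.88, 5.42 and 1.15 TPM at Day 3 (log2 fold change 3.42 ± 0.55 SE, adjusted p = 0.00216). PPARG, a nuclear receptor of fat and granulosa cells, had 127, 143 and 42.4 TPM at Puberty and 29.3, 36.3 and 39.6 TPM at Day 3 (log2 fold change 2.03 ± 0.45 SE, adjusted p = 0.00786). PLIN5, a lipid droplet protein, had 1.29, 0.91 and 1.78 TPM at Puberty and 10.7, 13.1 and 26.1 TPM at Day 3 (log2 fold change -3.37 ± 0.42 SE, adjusted p = 0.000785), and DGAT2, which makes triglyceride, fell by 2.19 ± 0.33. LPL and PPARG were higher, and PLIN5 was lower, in every Puberty library than in any Day 3 library. PLIN1, the defining droplet protein of fat cells, was at 0.42, 0.28 and 0.39 TPM at Puberty and 1.07, 1.53 and 1.23 TPM at Day 3 (log2 fold change -1.46 ± 0.41 SE, adjusted p = 0.0207), and its adjusted p was 0.083, 0.0565 and 0.0839 without Puberty replicates 2 and 3 and Day 3 replicate 2. Without Day 3 replicate 2 or 3, 3 of the adipocyte genes rose, and without Puberty replicate 2, 3 fell. Of 24 tested stromal fibroblast genes 10 rose (41.7%) and 3 fell (12.5%), the latter a share below that of all genes tested. CD34, a sialomucin of fibroblasts and endothelium, rose by 1.58 ± 0.26, VIT, vitrin, a matrix protein, fell by 4.07 ± 0.67, and PDGFRA, the receptor that marks fibroblasts, did not pass (log2 fold change 0.50 ± 0.20 SE, adjusted p = 0.0725) but had an adjusted p of 0.027 without Day 3 replicate 3.

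Counts of further lists can be set beside the 24.3% and 26.9% of all tested genes that rose and fell. Of 13 tested receptors for pituitary hormones, oxytocin and prolactin 5 rose and 1 fell (2 without Puberty replicate 3), of 17 genes of the IGF system 9 rose and 5 fell, and of 35 proteoglycan and hyaluronan genes 15 rose and 6 fell. Of 22 lymphocyte, mast cell and granulocyte genes 5 rose and 5 fell, with 8 and 3 without Puberty replicate 1 and 3 falling without any 1 of the Day 3 replicates. Of 41 complement and chemokine genes 11 rose and 9 fell, with 7 rising without Puberty replicate 2 or Day 3 replicate 2. Of 10 gap junction genes 2 rose and 2 fell, with 4 rising without Puberty replicate 2 or 3. Of 9 erythrocyte genes 3 rose and 2 fell, with 4 falling without Puberty replicate 3. Of 11 skeletal muscle genes 1 rose and 5 fell, and of 10 gut and kidney genes 1 rose and 7 fell.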
